A study of Mus musculus with 31 samples.

Results

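Genes for which the parental inbred strains DBA/2J and C57BL/6J are known to differ were examined, namely Glo1, Alad, Hc, C4b, Ahr, Mpdz, Gsta4, Tyrp1 and Myo5a. They were listed by name and then looked up by gene symbol in the annotation of the array, where all 9 were found, each with 1 probe, among 15096 genes with a symbol. Whole-brain RNA of 31 BXD/TyJ strains, each a pool of 3 males aged 8 weeks, had been labelled with Alexa Fluor 647 and hybridised, 1 array per strain, against whole-brain RNA of C57BL/6J males of the same age labelled with Alexa Fluor 555, with no dye swap. BXD strains are recombinant inbred lines from a cross of C57BL/6J with DBA/2J, so a line carries in homozygous form the allele of one parent or of the other at nearly every gene. The question put to each gene was whether its strain values fell into 2 parts, as a difference in the gene itself that changes its RNA would give. DBA/2J was not among the samples used here, and genotypes of the strains were not used here.

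A duplicated or disabled gene can change its own RNA in cis, that is, only from the chromosome that carries the change. A change in protein sequence alone need not alter the RNA, and no division follows from it. In recombinant inbred lines such a difference would separate the carriers of one allele from the carriers of the other, and genes close together on a chromosome would mostly separate the same lines. Among the 9 genes, Glo1 (glyoxalase I, which detoxifies methylglyoxal) and Alad (the porphobilinogen synthase of haem synthesis) lie in segments that are duplicated in DBA/2J. Hc encodes complement component C5, which DBA/2J lacks because of a frameshift, and C4b encodes complement component C4. Ahr encodes the dioxin receptor, whose DBA/2J form binds its ligands with lower affinity because of its protein sequence, and Gsta4 a glutathione transferase for aldehydes of lipid peroxidation. The pigment genes Tyrp1, an enzyme of the melanosome with the brown allele in DBA/2J, and Myo5a, the motor that carries melanosomes and neuronal organelles and bears the dilute retroviral insertion in DBA/2J, give that strain its coat colour. Mpdz, a scaffold protein with many PDZ domains, was proposed as the source of a difference between these strains in seizures on withdrawal from alcohol.

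Each value is a deposited log ratio, read as log2 of the strain's signal over that of C57BL/6J, following the channel order in the labels. Neither the log base nor the direction was stated, so the signs of the log ratios and their means would turn in the other direction, while those of correlations would stay. Quantile normalisation had given all arrays one distribution. The arrays nevertheless fell into sets. On the first principal component of all features, 7 arrays (BXD38, BXD36, BXD28, BXD23, BXD20, BXD8 and BXD6) stood apart, and on the second a further 8 (BXD42, BXD40, BXD39, BXD34, BXD33, BXD27, BXD22 and BXD15), which leaves 16 arrays called the core here. These array sets were found in the data and the labels name no batch, so differences between sets of strains and between sets of arrays cannot be told apart. Means and divisions were also computed without the 7 arrays and on the core arrays alone. Each strain had 1 array of 1 pool, so p-values measure the spread between arrays. The labelled tissue could not be checked by the presence of brain markers, because a ratio of 2 brain RNAs carries no level. Spot intensities were not analysed here. In bulk RNA, fewer cells of a type and less RNA per cell cannot be told apart.

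**Figure D1:**
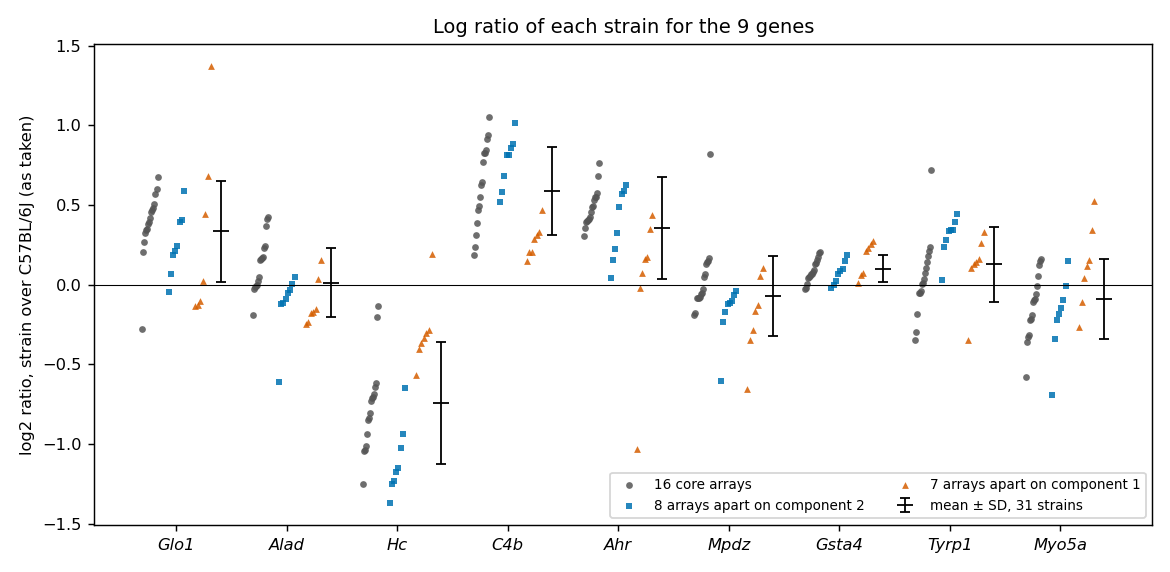
Log2 ratio (vertical axis) of each of the 31 strains for the 9 genes (horizontal axis), with the 16 core arrays, the 8 arrays apart on the second component and the 7 apart on the first drawn separately and the mean ± SD of all strains as a bar. C4b lies above 0 on all 31 arrays and Hc below 0 on 30, Gsta4 spans the narrowest range, and single strains stand far out for Glo1, Ahr, Mpdz, Tyrp1 and Alad.

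In the comparison with C57BL/6J, 6 of the 9 genes had a mean log ratio that differed from 0 by limma's moderated test, adjusted over 21262 features (genes, or spots without a symbol). Of all features, 76.1% did so, 42.1% upward and 33.9% downward, and the 6 of 9 lie near that background. Glo1, C4b, Ahr, Gsta4 and Tyrp1 were positive and Hc was negative. Every array had the same dyes for strain and reference, so a mean cannot tell strain from dye or from the reference RNA. Of these 6, Glo1 (0.39), C4b (0.63), Ahr (0.49), Gsta4 (0.09) and Hc (−0.76) passed on the core arrays alone, with limma adjusted p up to 0.00442, and Tyrp1 did not. Alad (0.14) and Myo5a (−0.13) also passed there (limma adjusted p = 0.00904 and 0.0267). In all, 7 of the 9 genes passed on the core, as did 16189 of 21262 features. A change of more than 1.2-fold was passed by only C4b and Hc of the 9, against 27.9% of all features.

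Glo1 had its lowest value in BXD18, −0.28, a median of 0.38 and its highest in BXD6, 1.37. The highest strain stood well away from the next, BXD28 at 0.68, and the lowest was followed by BXD38 at −0.14, BXD20 at −0.13 and BXD23 at −0.10. The mean was 0.33 ± 0.06 (SE, n = 31; limma adjusted p = 2.36e-06), and 26 of 31 strains were above 0. The best division put 12 strains at a mean of 0.04 ± 0.18 (SD) and 19 at 0.52 ± 0.23, a difference of 1.39-fold, but these parts met at a gap of 0.06, between BXD16 at 0.27 and BXD32 at 0.33. It held a share of 0.553 of the variance. A doubling would be a difference of 1 on this scale. Without BXD6 the share was 0.719 with 30 strains. Both parts held strains of every array set, 4 of the 7 arrays in the lower and 3 in the higher part.

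Alad had its lowest value in BXD27, −0.61, a median of 0.0014 and its highest in BXD31, 0.42. BXD27 stood apart from the next lowest strain, BXD6 at −0.25. Its mean of 0.01 did not pass the test (limma adjusted p = 0.764), with a 95% interval of −0.07 to 0.09. The largest difference that 2 equal parts could have at this spread, with no variation inside either part, is 0.42, less than a doubling. The best division gave 21 strains at −0.10 ± 0.15 (SD) and 10 at 0.25 ± 0.11, with a gap of 0.11. Of the 10 higher strains 9 were core strains, none came from the 8 arrays and 1, BXD38, from the 7. On the 16 core arrays alone the mean was 0.14 and passed the test (limma adjusted p = 0.00904). The array set and the value of Alad therefore moved together, and the part of the arrays in this was not tested.

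Of the complement genes, Hc had a lowest value of −1.37 in BXD27, a median of −0.73 and a highest value of 0.19 in BXD28. BXD28 was the only strain above 0, followed downward by the core strains BXD12 at −0.14 and BXD5 at −0.20. The mean was −0.74 ± 0.07 (SE, n = 31; limma adjusted p = 7.49e-12), the largest in size of the 9 genes. The 16 core arrays had a mean of −0.76 ± 0.29 (SD), the 8 arrays of −1.10 ± 0.22 and the 7 arrays of −0.29 ± 0.24. The 7 arrays ran from −0.57 to 0.19, the 8 from −1.37 to −0.65 and the core from −1.25 to −0.14. The sets were drawn from all features together, and how many other features keep the 7 and the 8 apart was not counted. All 7 arrays and 1 of the 8 fell in the higher part of the best division, which took 16 strains at −0.45 and left 15 at −1.06, a difference of 1.53-fold. The share of the variance between these parts was 0.671, and they met between BXD16 at −0.81 and BXD13 at −0.73. On the core arrays alone the share was 0.560.

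C4b came closest to a division. Its values ran from 0.15 in BXD6 through a median of 0.58 to 1.05 in BXD24, all above 0, and the mean was 0.59 ± 0.05 (SE, n = 31; limma adjusted p = 1.47e-12). Of all features, 10.2% had the same sign on all 31 arrays. The best division set 16 strains at 0.36 ± 0.14 (SD) against 15 at 0.84 ± 0.12, a difference of 1.39-fold, and held a share of 0.777 of the variance, which was reached by 7.87% of all features. The parts met at a gap of 0.05, with BXD33 at 0.58 below and BXD9 at 0.63 above, so no empty stretch lay between them. Without BXD33 the share was 0.80045 and just passed the threshold, the only such case among the 9 genes when single arrays were left out. BXD33 is the strain at the edge of the lower part, where leaving out a strain favours a division, and it was picked after the data were seen. How many of all features divide without BXD33 was not counted. All 7 arrays lay in the lower part, from 0.15 to 0.47, against 2 of the 8 arrays and 7 of the core. Within the core, where values ran from 0.19 to 1.05, the share was 0.755, reached by 14.5% of features. The mouse genome holds a close copy of C4b, so its probe may read RNA of both.

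Both complement genes thus varied with the array sets, Hc higher and C4b lower on the 7 arrays. Astrocyte markers (7 genes, mean log ratio per array) had a median of −0.34 on the 7 arrays (−0.42 to −0.23), −0.16 on the core (−0.57 to 0.08) and −0.04 on the 8 arrays (−0.18 to 0.02). Microglial markers (7 genes) had medians of 0.04, −0.17 and 0.04 in the same order, and oligodendrocyte markers (6 genes) 0.50, 0.24 and 0.32. The medians of neuronal markers (7 genes) were −0.14, 0.01 and 0.05, and those of choroid plexus markers (5 genes) −0.15, 0.03 and −0.14. Blood markers (4 genes) had −0.20, −0.17 and −0.13, and pituitary markers (7 genes) −0.22, −0.04 and −0.09. Markers of one cell type went different ways on the 7 arrays. In each gene's own best division, all 7 lay in the lower part for Gja1 and Gfap, but 6 in the higher part for the astrocyte gene Slc1a3. Of microglial genes, Tyrobp had all 7 in the lower part and Cx3cr1, P2ry12 and Cd68 all 7 in the higher. Of oligodendrocyte genes, Cnp had 6 in the higher part and Mobp 6 in the lower. Astrocytes and microglia are the main brain sources of several complement components. Of the 7 astrocyte markers 1 was positive and 3 negative against C57BL/6J. In the lower part of C4b the astrocyte median was −0.31 (16 strains, −0.57 to −0.02), and in the higher part it was −0.06 (15 strains, −0.25 to 0.08). For Hc it was −0.05 in the lower part and −0.25 in the higher part, the other way round. Microglial medians were −0.03 and −0.01 for C4b and −0.16 and −0.02 for Hc, lower part first. All 7 arrays lay in the lower part of C4b and the higher part of Hc, so these medians mix parts with array sets. Core strains lay in both parts, 7 and 9 for C4b and 8 and 8 for Hc, lower part first. Marker medians of the parts within the core were not compared. The part of these cells in the result was not tested.

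Ahr had a lowest value of −1.03, in BXD36, a median of 0.41 and a highest of 0.76, in BXD9. BXD36 stood apart, the next lowest being BXD38 at −0.02, and all other strains but BXD38 were above 0. The mean was 0.35 ± 0.06 (SE, n = 31; limma adjusted p = 1.08e-06) and 0.40 without BXD36. The core strains were the most alike, at 0.49 ± 0.12 (SD), against 0.38 ± 0.22 on the 8 arrays and 0.02 ± 0.49 on the 7. The best division set 7 strains, none of them from the core, against 24 and held a share of 0.513 of the variance, which 93.2% of features reached. Without BXD36 the share was 0.683.

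Ahr, with its partner Arnt, binds DNA at sites with the core GCGTG. RefSeq windows from 250 bases before to 50 after a gene's start (GRCm38.p6) matched 5 of the 9 genes, Hc, Alad, Tyrp1, Myo5a and Glo1, with 6 windows in all. The core on either strand was found in both windows of Alad, which overlap and share 1 site, and in that of Myo5a. Of 32851 windows of the same length, 32.4% hold it. One window of each of these genes is shown, since they are the only matched members with the core. Both run 5′ to 3′ on the strand of the gene, with the core in capitals.
Alad, chr4:62520014-62520313, minus strand: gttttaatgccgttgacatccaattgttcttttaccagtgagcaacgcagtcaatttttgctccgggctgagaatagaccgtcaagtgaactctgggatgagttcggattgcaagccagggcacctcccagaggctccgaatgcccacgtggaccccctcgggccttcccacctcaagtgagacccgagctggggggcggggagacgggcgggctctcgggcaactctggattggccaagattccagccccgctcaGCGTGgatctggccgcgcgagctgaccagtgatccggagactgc
Myo5a, chr9:75070956-75071255, plus strand: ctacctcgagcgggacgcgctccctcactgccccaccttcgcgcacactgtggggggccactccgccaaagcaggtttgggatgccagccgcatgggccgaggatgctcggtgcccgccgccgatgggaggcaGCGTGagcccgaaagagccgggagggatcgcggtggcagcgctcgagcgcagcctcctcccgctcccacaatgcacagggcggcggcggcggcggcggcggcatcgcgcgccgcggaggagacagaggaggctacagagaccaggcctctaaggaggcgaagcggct
Over the strains, with the mean of each array set subtracted, Ahr had a Pearson r of 0.15 with Alad (permutation p = 0.396) and of −0.05 with Myo5a (permutation p = 0.809). Neither relation passed.

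Gsta4 hardly varied. Its lowest value was −0.03, in BXD14, its median 0.08 and its highest 0.28, in BXD36. The SD over 31 strains was 0.09, and only 6 of 21262 features had a smaller one. The mean, 0.10 ± 0.02 (SE, n = 31; limma adjusted p = 5.47e-05) was small but passed, with 27 strains above 0. Subtracting the median of spots at the same place in a run of 8 left 0.02, which did not pass (limma adjusted p = 0.469). The best division held a share of 0.754 of the variance, with 19 strains at 0.04 and 12 at 0.19, yet the difference was only 1.11-fold and the gap 0.03. With array-set means subtracted the share was 0.748, which 1.88% of features reached. A high share can thus go with a very small difference. The 4 highest strains, BXD36, BXD6, BXD23 and BXD28, all belonged to the 7 arrays, whose other strains lay between 0.01 and 0.07.

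Of the pigment genes, Tyrp1 ran from −0.35 in BXD38 through a median of 0.14 to 0.72 in BXD13, and 24 of 31 strains were above 0. BXD13 was the only strain far from the others, the next being BXD39 at 0.44. The mean was 0.13 ± 0.04 (SE, n = 31; limma adjusted p = 0.00724). It was highest on the 8 arrays, at 0.30 ± 0.13 (SD), against 0.05 ± 0.25 on the core, where it did not pass (limma adjusted p = 0.472). It did not pass either with the place in the run of 8 subtracted (0.05, limma adjusted p = 0.342). The best division, 12 strains against 19, held a share of 0.599 of the variance.

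Myo5a ran from −0.69 in BXD22 through a median of −0.10 to 0.52 in BXD36, with 21 strains below 0. The strains at either end, BXD22, BXD16 at −0.58, BXD28 at 0.34 and BXD36, came from all 3 array sets. The mean of −0.09 did not pass (limma adjusted p = 0.0671; 95% interval −0.18 to 0.00085), but on the core arrays it was −0.13 and passed (limma adjusted p = 0.0267). It also passed without the 7 arrays at −0.15 (limma adjusted p = 0.00304) and with arrays centred on their median at −0.10 (limma adjusted p = 0.0378). When single arrays were left out in turn, the mean passed in 3 of 31 cases. These were without BXD36, BXD28 or BXD5, at −0.11, −0.11 and −0.10 (limma adjusted p = 0.0170, 0.0318 and 0.0496). They are the 3 strains with the highest values, so leaving out any of them moves a negative mean further from 0. The best division, 19 strains at −0.24 against 12 at 0.15, held a share of 0.600 of the variance.

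Mpdz ran from −0.65 in BXD28 through a median of −0.08 to 0.82 in BXD16. BXD16 stood alone, the next highest being BXD32 at 0.17, and at the lower end BXD28 and BXD22, at −0.61, were apart from BXD38 at −0.35. The mean of −0.07 did not pass (limma adjusted p = 0.156; 95% interval −0.16 to 0.02); without BXD16 it was −0.10 and passed (limma adjusted p = 0.0141). On the core arrays it turned to 0.04 (limma adjusted p = 0.505). The best division held a share of 0.442 of the variance, the lowest share of the 9 genes, and 97.8% of features had at least this share. All 8 arrays fell in its lower part.

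**Figure D2:**
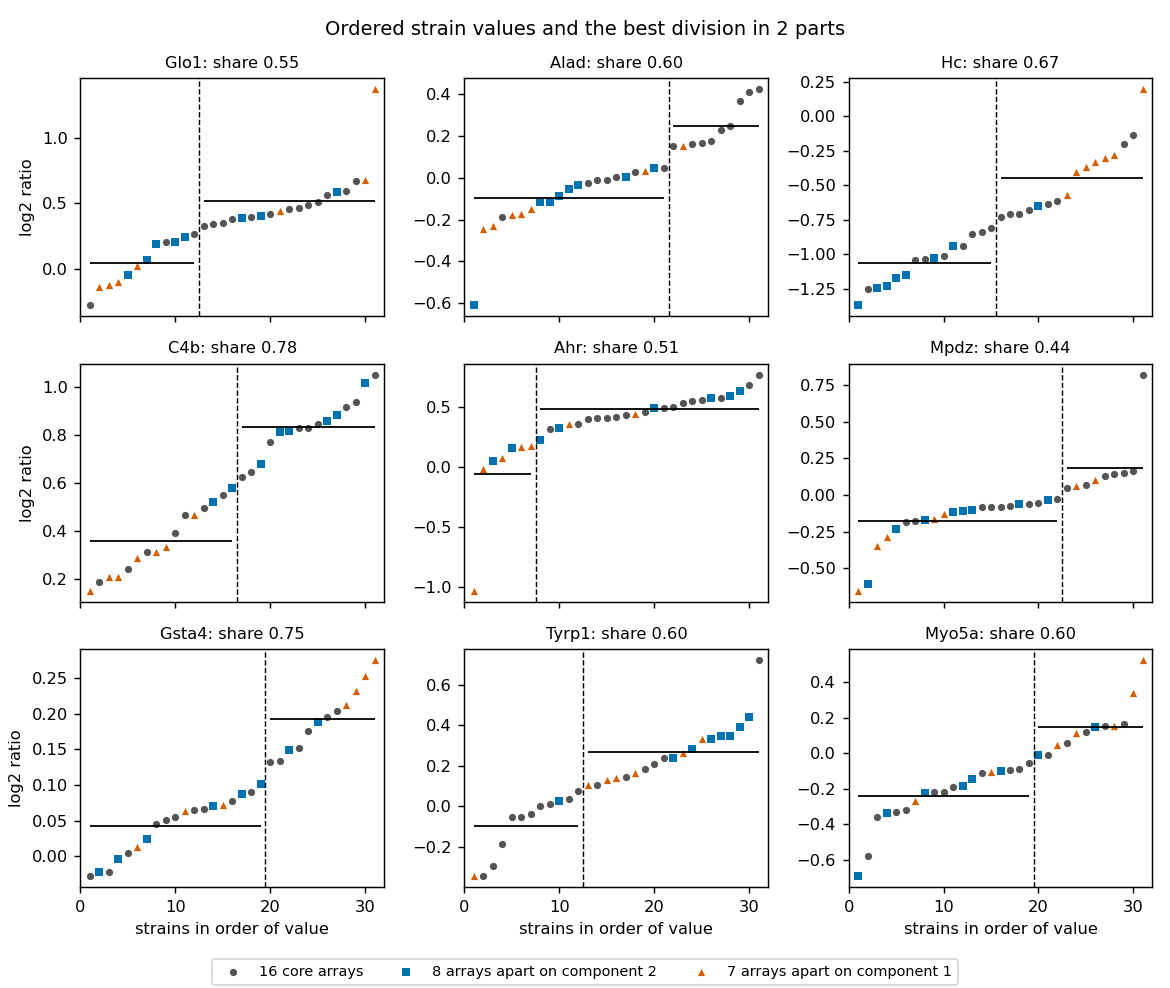
Log2 ratios (vertical axis of each panel, own scale) of the 31 strains in order of value for each gene, with the best division as a dashed line, the means of its parts as bars and the array sets as in the key. The gaps at the dashed line run from 0.03 for Tyrp1 and Gsta4 to 0.11 for Alad. For Alad, Gsta4 and Mpdz this is the widest gap with at least 5 strains on each side. Relative to the range, 29.6%, 27.0% and 86.1% of features have a widest gap at least as large. The 7 arrays gather at the lower end for C4b and the upper end for Hc.

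None of the 9 genes divided the 31 strains in 2 parts by the rule used, a share of variance between parts of at least 0.8 with at least 5 strains on each side, which equal parts 4 within-part SDs apart would give. Of all features, 4.58% did. The median share of the 9 genes was 0.599 and that of all features 0.663. Of the duplicated genes, Glo1 had a share of 0.553 and Alad of 0.595. Without its outermost strain, chosen after the data were seen, Glo1 had 0.719 (without BXD6, 7 strains against 23). Alad had 0.711 without BXD27 (20 strains against 10). The median of 0.663 is over features with all 31 strains, so it is no like measure for these 2 values. On the core arrays Alad had a share of 0.701 against a median of 0.658 over all features, and with array-set means subtracted 0.612 against 0.606, while Glo1 had 0.473 and 0.492. The differences between parts ran from 1.11-fold for Gsta4 to 1.53-fold for Hc. With the mean of each array set subtracted, 0.136% of features (29) divided in place of 974, and none of the 9 genes. Nor did any of them divide without the 7 arrays (5.95% of features; shares of 0.463 for Mpdz to 0.738 for C4b), on the core arrays (5.44%; 0.473 for Glo1 to 0.755 for C4b), with the place in a run of 8 subtracted (4.59%) or with at least 8 strains on each side (3.77%). The subtraction of set means also removes any difference between strains that lies between the sets.

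**Figure D3:**
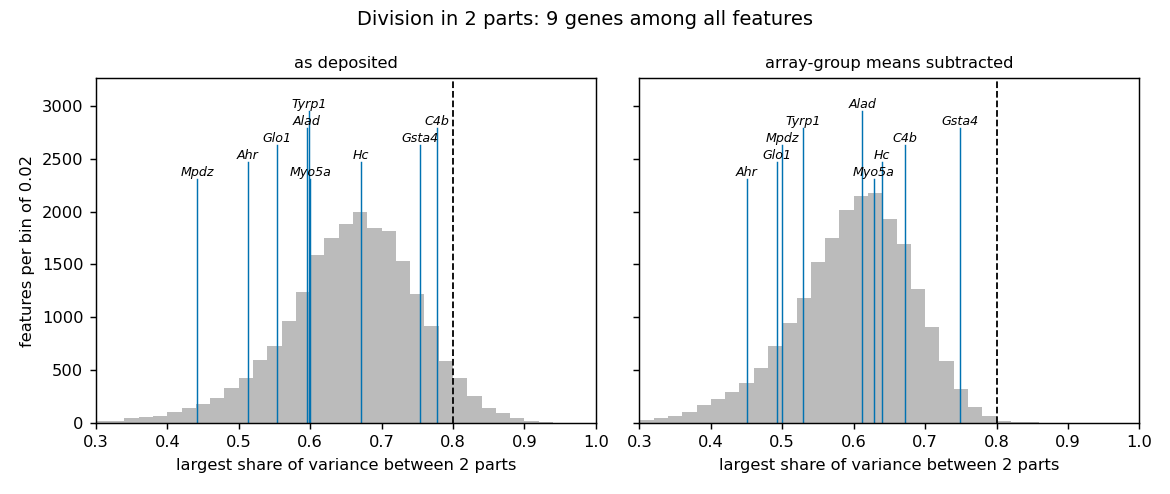
Number of features (vertical axis, bins of 0.02) by the largest share of variance between 2 parts (horizontal axis), for values as deposited and with array-set means subtracted; blue lines mark the 9 genes and the dashed line the threshold of 0.8. All 9 lie left of the threshold in both panels, C4b nearest as deposited and Gsta4 nearest after subtraction.

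The next comparison asked whether genes on one chromosome varied together, since linked genes carry the same parental allele in most strains. Alad, Mpdz and Tyrp1 lie on chromosome 4, Gsta4 and Myo5a on chromosome 9, and Glo1 and C4b on chromosome 17, which gives 5 pairs among 36. Tyrp1 and Mpdz are 2 places apart in the order of measured genes. With array-set means subtracted, their Pearson r was −0.28 and their Spearman rho −0.06 (permutation p = 0.149 and 0.760, adjusted p = 0.622 and 0.943 over 36 pairs). Without BXD16 and BXD28, the 2 strains farthest from the median of Mpdz, r was 0.02. The r of Glo1 with C4b was −0.01 (rho −0.0048) and that of Gsta4 with Myo5a 0.08 (rho 0.12), each with an adjusted permutation p of 0.978 for r. Alad had an r of −0.10 with Mpdz (rho −0.0012, adjusted permutation p = 0.955 for r) and of −0.22 with Tyrp1 (rho −0.18, adjusted permutation p = 0.711). No linked pair reached an unadjusted permutation p of 0.05. On the core arrays alone their r ran from −0.45 for Mpdz with Tyrp1 to 0.07 for Glo1 with C4b.

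**Figure D4:**
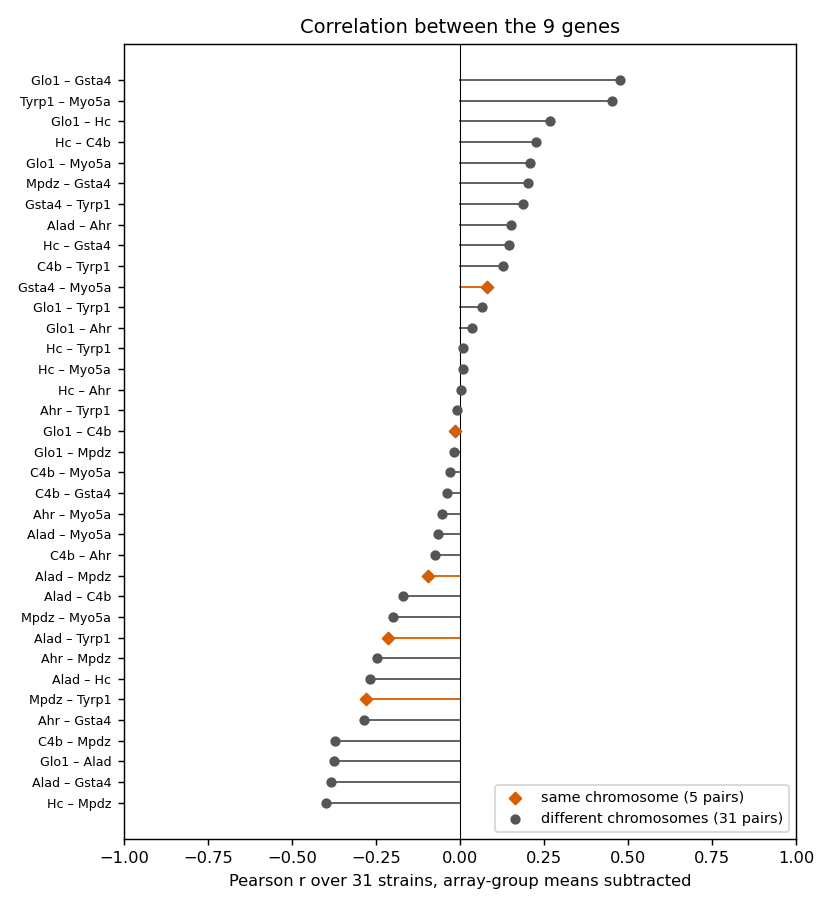
Pearson r over 31 strains (horizontal axis) for each of the 36 pairs of the 9 genes after subtracting array-set means, with pairs on 1 chromosome as orange diamonds. The 5 linked pairs lie between −0.28 and 0.08, inside the range of the other 31, from −0.40 to 0.48.

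None of the 36 pairs passed by Pearson r after adjustment; 6, all on different chromosomes, had an unadjusted permutation p under 0.05 (smallest adjusted p = 0.234). The highest was Glo1 with Gsta4 at 0.48 (rho 0.51), with 0.19 on the core, 0.66 on the 8 arrays and 0.65 on the 7, and 0.47 without BXD6 and BXD18. The pigment genes Tyrp1 and Myo5a had 0.45 (rho 0.37), with 0.60, −0.20 and 0.62 in the same order, and 0.36 without BXD13 and BXD38. By rank, C4b with Mpdz passed, at a rho of −0.56 (permutation p = 0.00074, adjusted p = 0.0266), with a Pearson r of −0.37 (adjusted p = 0.234), −0.21 on the core, −0.77 on the 8 arrays and −0.95 on the 7. The complement genes Hc and C4b had an r of 0.22 (rho 0.42, permutation p = 0.272 and 0.0300), with 0.02 on the core, 0.80 on the 8 arrays and 0.83 on the 7. Without the core strains BXD5 and BXD12 their r was 0.63 (adjusted permutation p = 0.00576), so the size of r depended on the strains kept. In each pair the strains left out were the 2 farthest from the median of the gene named first, after array-set means were subtracted. The other gene had no part in that choice.

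The measured neighbours of each gene, 10 on either side, were examined in the same way as a description. The median r with the 20 neighbours ran from −0.08 for Gsta4 to 0.05 for Hc, and the medians over genes on other chromosomes from −0.02 to 0.02. Between 6 and 11 of the 20 neighbours had a positive r. The highest single values were 0.48 for Hc with Dab2ip, 0.48 for Ahr with 9130015A21Rik and 0.47 for Alad with Rgs3, and 0.488%, 3.003% and 0.552% of the genes on other chromosomes reached them. These were chosen as the highest of 20 and came with no test.

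The genes most like each member over the strains, by Pearson r after subtracting array-set means (31 arrays, with no p), lay on other chromosomes in most cases. For Glo1 they were Nde1 (0.73), Ide (0.72) and 4933400F03Rik (0.71), and for Alad D16Ertd472e (0.71), Mns1 (0.64) and Nuak2 (0.61). Hc was most like Ppil6 (0.69), Card14 (0.68) and Hnmt (0.66), the last on chromosome 2 with it. C4b was most like Lbh, also on chromosome 17, at 0.78 (0.88 on the core), then Spred2 (0.71) and Olfr586 (0.69). For Ahr, Man2b1 and Slc6a21 each reached 0.83 and 4930401G09Rik 0.79, but on the core arrays, which leave out BXD36, these were 0.34, 0.42 and −0.50. Mpdz was most like Snx27 (0.77), Osbpl6 (0.76) and Olfr73 (0.75), Gsta4 like Ulk1 (0.72), Fundc2 (0.64) and Tmed8 (0.63), and Tyrp1 like Vps16 (0.68), Slc19a3 and Tctn2 (0.67 each). Myo5a was most like P4hb (0.72), Pgrmc1 (0.71) and Atp9b (0.71). The lowest r ran from −0.62, for Hc with Tfap2a, to −0.82, for Ahr with Ccdc162.

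Genes that act with the members were read against the same background of 76.1%, and their signs have the same limit of dye and reference. In haem synthesis, 3 of the other 7 measured genes were positive and 1 negative; the rate-limiting synthase gene Alas1 had 0.70 ± 0.08 (SE, n = 31; limma adjusted p = 1.8e-09) and was above 0 in 30 strains, Ppox stood at 0.21, the ferrochelatase gene Fech at 0.23 and the erythroid Alas2 at −0.15. Of 3 other genes of methylglyoxal handling, Park7 was positive at 0.52, and Hagh, the hydrolase that follows Glo1, was negative at −0.17. The aldehyde dehydrogenase gene Aldh9a1 was negative at −1.21 and divided the strains, with a share of 0.860. Its 15 lower strains, at −1.84, were exactly the 8 and the 7 arrays, and its 16 higher strains, at −0.62, the core, so that here the division followed the array sets. Its probe lies at the eighth place in a run of 8 spots, where named probes had a mean of −0.51, against −0.01 to 0.08 at the other places.

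Of 15 other complement genes, 4 were positive, 6 negative and 5 did not pass, with a median of 0.01. The receptor genes C5ar1, whose ligand is a fragment of the Hc product, and C3ar1 had means of −1.02 and −1.11, and C8b, of the membrane attack complex, of −0.40, all with probes at the eighth place, while C6, of the same complex, had 0.45 with all 31 strains above 0. Among 9 other genes of the Ahr pathway, 3 were positive and 5 negative. The repressor gene Ahrr had −0.46 and Cyp1a2, a target in liver, −0.67, and the cochaperone gene Ptges3 had 0.52 and Tiparp, another target, 0.21. Cyp1b1, a target named here because its division was seen, had a share of 0.815 and a probe at the eighth place, with 15 of its 20 lower strains from the core and 7 of its 11 higher strains from the 8 arrays. Of 12 other glutathione transferase genes, 6 were positive and 4 negative, such as Gstp1 at 0.49, Gstz1 at 0.39, Gstt2 at 0.23 and Gsta2, of the same class as Gsta4, at −0.39.

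Of 10 other melanin genes, 5 were positive and 3 negative. Mitf, the regulator of melanocytes, had a mean of −0.56 and Mlana, of the melanosome, of −0.32, both below 0 in all 31 strains, Pmel of 0.50 and the transporter gene Slc45a2 of −0.24. The only probe of Mlana lies at the eighth place, and the 4 probes of Mitf lie at several places, the eighth among them. Among 6 other genes of myosin V transport, 3 were positive, among them the light chain gene Dynll1 at 0.44 and Myo5c at 0.33, and 3 negative, among them Rab11fip2 at −0.60 and Rab11a, whose probe lies at the eighth place, at −0.85. Of 9 other genes listed with the PDZ scaffolds, 6 were positive and 3 negative. The positive ones included Dlg1 at 0.44 and Patj, the closest relative of Mpdz, at 0.33. Htr2c, a receptor gene and no scaffold, was also among them at 0.22. Negative ones included Dlg2 at −0.39 and Mpp5 at −0.26. A further 4 genes known to differ between the parents were measured. Taar1, a trace amine receptor gene, had 0.33, Gpnmb 0.11, the killer cell receptor gene Klrd1 −0.17 and the potassium channel gene Kcnj9 −0.22, all past the test, and none divided the strains, with shares up to 0.650.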

How the data were processed

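Per the labels, the pooled RNA (20 ug a strain) was labelled beside 20 ug of reference RNA to which 2 ug of spike-in had been added. The authors deposited log2 ratios (base taken as 2, which limma writes) for 23040 spots; R 2.0.0 and limma stand in the submitters' processing notes, with no role. Background correction and filters: not given in the sources used here. Every array had an identical set of values, median 0.01, so quantile normalisation had been applied.

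Of the probes, 16874 had 1 symbol, 134 several and 6032 none; averaging by gene left 15096 genes and, with unnamed spots, 21262 features. Means were tested against 0 with limma 3.58.1 in R 4.3.3 (two-sided, Benjamini-Hochberg at 0.05); the reference counts as 1 control sample, whose spread is left out. Array sets had scores above 0.2 on the first 2 principal components. The division was the largest share of variance between 2 parts of the ordered values, with no p-value. Pairs were tested by 100000 shuffles of strains within array sets (two-sided permutation test). Gene order came from RefSeq (GRCm38.p6) by Entrez identifier. Procedures were tested on simulated data. Named were the members, up to 4 genes a companion list with the smallest adjusted p, and for each member the 3 genes with the highest and 1 with the lowest r. Members and lists were chosen with earlier results of these data known.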

Additional observations from a re-analysis of the deposited data

How the results depend on the processing

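Alternatives were centring arrays on their median, leaving out the 7 arrays or all but the core, subtracting the place in a run of 8, testing spots singly, flipping signs, and others named here. The 6 members differing from 0 became 5 to 7, except against 1.2-fold, where 2 members passed. There 5938 of 21262 features passed, against 16176 in the main test. The mean of Mpdz turned to 0.0427 on the core arrays and that of Alad to -0.0365 with the place subtracted. Leaving out single arrays, chosen after the data were seen, gave means of Alad from -0.00021 to 0.0343. No alternative divided a member except leaving out BXD33 for C4b; with array-set means subtracted 29 features divided, against 974 as deposited. Of pairs on 1 chromosome 0 passed under every alternative run. Among all pairs, where 0 passed, 1 passed with residuals after 3 components (Glo1 with Gsta4, 0.53). Another alternative left out the 2 strains farthest, after array-set means were subtracted, from the median of the gene named first in the pair. There 3 pairs passed, Hc with C4b at 0.63, Alad with Gsta4 at -0.54 and C4b with Mpdz at -0.50. The causes were not tested. Without intensities, weak spots could not be set apart.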
